A study of Mus musculus with 4 samples.

Results

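The 10 genes described here encode transcription factors that steer intestinal epithelial cells towards secretory or absorptive fates, namely Atoh1, Spdef, Gfi1, Neurog3, Neurod1, Klf4, Hes1, Sox9, Foxa1 and Foxa2. They were taken by symbol from a list written with earlier results of these data known, and they are 10 of the 20859 condensed genes (overlapping RefSeq exons joined into 1 gene) on which reads were counted. Each of the 10 had at least 1 read in each of the 4 libraries, counted on both strands. For Neurog3 in ribosomal RNA-depleted small intestine this was 1 read, on the strand opposite to the gene.

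In the intestinal crypt, a cell that receives a Notch signal makes Hes1, a repressor that keeps Atoh1 low, and such a cell enters the absorptive lineage. A cell that escapes the signal makes Atoh1, which commits it to the secretory lineage of goblet, Paneth and enteroendocrine cells. Downstream of Atoh1, Spdef matures goblet and Paneth cells, Gfi1 holds cells away from the endocrine fate, and Neurog3 followed by Neurod1 opens it. Klf4 acts in goblet cells and in differentiated surface cells, Sox9 in the crypt base and in Paneth cells, and Foxa1 and Foxa2 in endocrine and goblet cells.

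The study compared small intestine with colon of C57BL/6 mice aged 9 to 10 weeks in 2 RNA-Seq protocols. All 4 libraries came from whole tissue frozen in liquid nitrogen, with no treatment and no altered allele, from jejunum and distal colon by the study's methods. In the polyadenylated protocol, mRNA was turned into SMART cDNA before fragmentation and strand was not kept. In the ribosomal RNA-depleted protocol (SOLiD Whole Transcriptome Analysis Kit), RNA was fragmented first and strand was kept, and the labels' ribosomal RNA depletion is used here although the study's text describes polyadenylated RNA for RNA fragmentation. The number and length of the reads of these libraries differ from those the study gives for its RNA fragmented libraries, and whether they are the same libraries is not given in the sources used here. There is 1 library per tissue and protocol, and whether a library holds 1 mouse or a pool is not given in the sources used here. The study describes its 2 tissues as taken from the same individuals, but which mice gave which library is not given in those sources. No test between tissues was run, since neither protocol has replicates among these 4 libraries. Every interval below is a 95% interval that covers counting error only. The intervals take reads as independent, although many reads of a gene can begin at the same position, so they can be too narrow.

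Of the reads placed uniquely on exons or exon-exon junctions, there were 22484041 in the polyadenylated small intestine library, 24798934 in polyadenylated colon, 2035386 in ribosomal RNA-depleted small intestine and 3478387 in ribosomal RNA-depleted colon. The tissue labels were checked against markers. Gata4, a factor of the proximal small intestine, had 665 and 245 reads in the small intestine libraries and 5 reads in each colon library. Car1, a carbonic anhydrase of the colon surface, was at 52340 RPKM in polyadenylated colon (RPKM, reads per 1000 bases of exon and 1000000 uniquely placed reads) with no read in polyadenylated small intestine. Gata4 thus lay on the side of the label in each protocol, and Car1 in the polyadenylated protocol, the only one for which it is given here. Both genes come from lists written with earlier results of these data known. A list of 8 pancreatic acinar enzymes and factors stood apart from this. Its summed level was 0.827 RPKM in polyadenylated small intestine, 238 in polyadenylated colon, 2247 in ribosomal RNA-depleted small intestine and 7.31 in ribosomal RNA-depleted colon, with Amy2a5 and Ptf1a at 0 in all 4. Acinar transcripts thus went with colon in the former protocol and with small intestine in the latter. Each protocol is reported on its own, as was planned. Foxa2, Neurod1, Neurog3 and Sox9 also act in the pancreas, and the part of pancreatic RNA in their values was not tested. Of a list of 6 pancreatic islet genes, Ins1 and Ins2 had no read in any library, while Ppy had 650 reads in polyadenylated colon and at most 7 elsewhere. Iapp had 31 and 121 reads in polyadenylated small intestine and colon and 1 and 4 in the ribosomal RNA-depleted pair. Whether the Ppy and Iapp reads came from pancreas was not tested. Pdx1, which the proximal intestine also makes, had 15 reads in ribosomal RNA-depleted small intestine and at most 1 elsewhere.

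Across the 10 genes the colon library was higher than the small intestine library in both protocols, with the exceptions under other scalings given beside Neurod1 and Neurog3. The ratio of colon to small intestine was above 1 for 10 of 10 genes in the polyadenylated protocol, where 66.3% of all genes tested had such a ratio, and for 9 of 9 tested in the ribosomal RNA-depleted protocol, where the share was 64.8%. Neurog3, with 1 and 2 reads there, was not tested. At least 2-fold higher in colon were 8 of 10 genes by polyadenylated RNA, against 26.1% of 14205 genes with at least 20 reads in both libraries together. In the other protocol, 8 of 9 genes with enough reads were at least 2-fold higher in colon, against 27.9% of 11927. Of these, Gfi1, Neurod1 and Foxa2 reached 20 reads only through colon, with 3 to 6 reads in small intestine, so the counts for this protocol and for both protocols are descriptions. With no minimum of reads the count was 8 of 10, against 27.3% of 14871 genes. With a minimum of 100 reads the count was 5, against 25% of 7601 genes. Gfi1, Neurod1, Neurog3 and Foxa2 did not reach that minimum, and of the genes that did, only Klf4 was under 2-fold. No gene of the set was 2-fold higher in small intestine, where the background was 9.68% and 12.3%. At least 2-fold higher in both protocols were 7 genes, Atoh1, Spdef, Gfi1, Hes1, Sox9, Foxa1 and Foxa2, against 13.6% of 11741 genes tested in both. With the median of ratios, with scaling by epithelial genes or with start points (distinct positions and strands of read starts) in place of reads, these were 4 genes, Atoh1, Spdef, Gfi1 and Foxa2. The share of all genes in both protocols was not calculated under these alternatives, and the 13.6% does not apply to them. A start point counts once however many reads begin there, so the measures part where many reads share a position. Whether reads or start points lie nearer the difference in level was not tested.

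All genes tested were themselves shifted towards colon, with a median log2 ratio of 0.40 in both protocols. The median log2 ratio of the 10 genes was 1.40 in the polyadenylated protocol and 1.53 in the ribosomal RNA-depleted protocol. When the libraries were scaled by the median of ratios over genes, the shift of all genes became -0.00 and 0.06. Then 5 and 6 genes of the set were at least 2-fold higher in colon and none in small intestine, against 16.0% and 18.9% of all genes higher in colon and 15.6% and 18% higher in small intestine. Klf4, Hes1 and Sox9 were then under 2-fold by polyadenylated RNA, and Hes1 and Foxa1 by ribosomal RNA-depleted RNA. The 8 epithelial reference genes (Epcam, Cdh1, Krt8, Krt19, Cldn3, Cldn7, Lgals4 and Elf3) had median log2 ratios of 0.59 and 0.79, and scaling by them also left 5 and 6 genes of the set at least 2-fold higher in colon. Under that scaling 12.7% and 17.5% of all genes were at least 2-fold higher in colon and 19.8% and 19.2% in small intestine. In bulk tissue, fewer cells of a type and less RNA per cell cannot be told apart. Nor is the tissue all epithelium. The summed level of 5 smooth muscle markers was 219 and 826 RPKM in polyadenylated small intestine and colon and 188 and 1762 RPKM in the ribosomal RNA-depleted pair. Without rescaling, all 5 were at least 2-fold higher in colon in both protocols, against 26.1% and 27.9% of all genes. The 8 markers of enteric neurons and glia summed to 8.99 and 20.9 RPKM and to 6.43 and 29.2 RPKM. Of those tested, 5 of 7 and 5 of 5 were at least 2-fold higher in colon, against the same shares. Sox10 and S100b were at 0 in 1 small intestine library each. The summed level of 5 immune markers was lower in colon, with 65.8 and 37.1 RPKM in the polyadenylated pair and 26.0 and 22.1 RPKM in the ribosomal RNA-depleted pair. In the former 3 of the 5 were at least 2-fold higher in small intestine, against 9.68% of all genes. Among them was the T cell gene Cd3e, by 10.7-fold (6.98 to 17.3). In the latter neither of the 2 tested was 2-fold apart, where 12.3% of all genes were at least 2-fold higher in small intestine. The part of these cells in the ratios of the 10 genes was not tested.

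**Figure D1:**
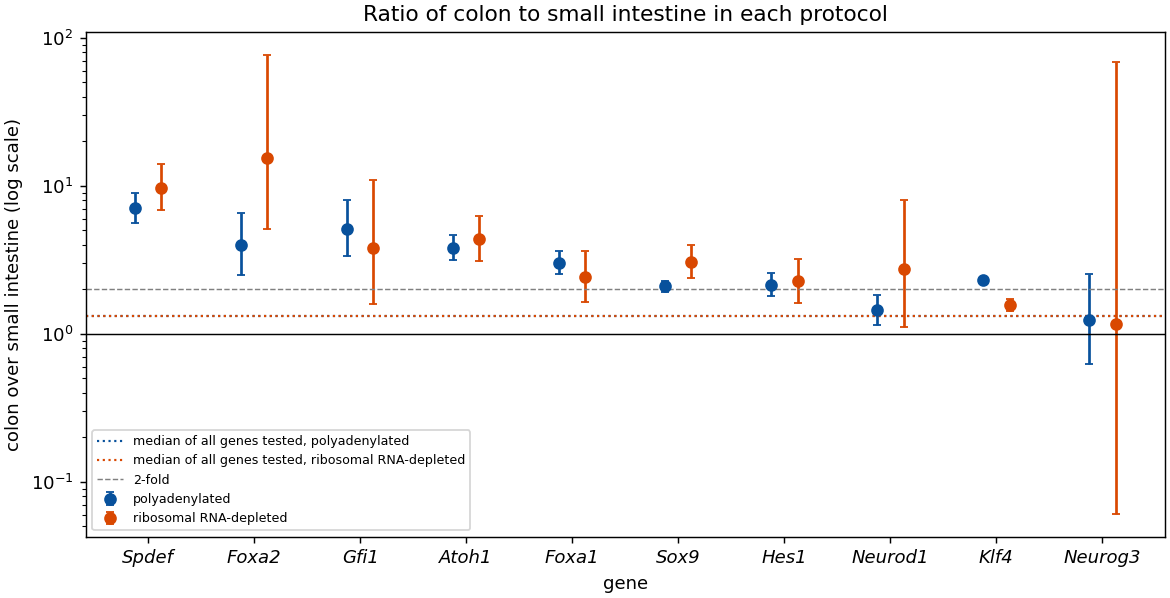
Ratio of colon to small intestine RPKM (log axis) of each gene in both protocols, with 95% counting intervals, the median of all genes tested as dotted lines and 2-fold as a dashed line. All points lie above 1, from 1.17 for Neurog3 (1 and 2 reads) to 15.4 for Foxa2, both by ribosomal RNA-depleted RNA. With other scalings Neurog3 and Neurod1 fall below 1.

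Per length of exon, the genes spanned 166-fold to 442-fold between the highest and the lowest within a library. Klf4 was the highest in all 4 libraries and was separated by its counting interval from the next gene. Neurog3 was the lowest in 3 libraries. In polyadenylated small intestine Gfi1 was lowest, but Foxa2, Neurog3 and Gfi1 could not be separated there. Spdef changed its place in the order, from the seventh of the set in polyadenylated small intestine to the third in polyadenylated colon and the second in ribosomal RNA-depleted colon. It was not separated from Neurod1 above it in polyadenylated small intestine, nor from Hes1 below it in polyadenylated colon. In ribosomal RNA-depleted small intestine, Hes1, Atoh1, Spdef, Sox9 and Foxa1 followed Klf4 with no separation between neighbours, and only the borders after Klf4 and after Foxa1 exceeded counting error.

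**Figure D2:**
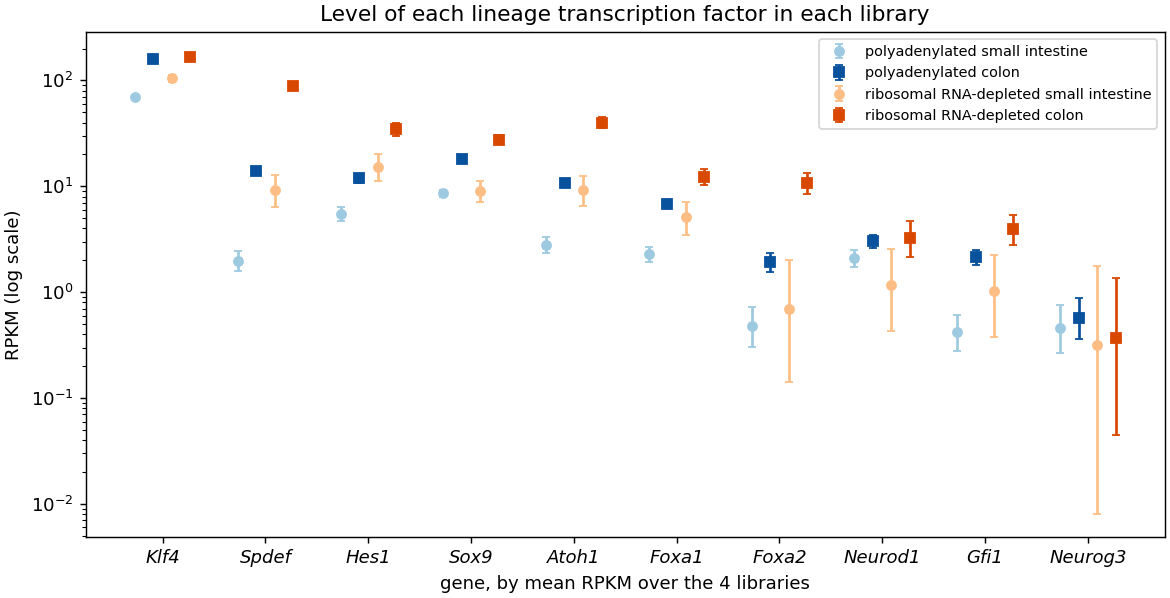
Level of each of the 10 genes in each of the 4 libraries in RPKM (log axis), with exact Poisson 95% intervals, genes ordered by their mean. Klf4 lies above 69 RPKM throughout, and Neurog3 lies below 0.6 RPKM throughout.

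Atoh1 (chromosome 6, mm9 positions 64679140 to 64681229, plus strand, 1 exon), which commits cells to the secretory lineage, had 132 reads in polyadenylated small intestine and 557 in polyadenylated colon, or 2.81 RPKM (2.35 to 3.33) and 10.7 RPKM (9.87 to 11.7). In the ribosomal RNA-depleted libraries it had 39 and 290 reads, or 9.17 RPKM (6.52 to 12.5) and 39.9 RPKM (35.4 to 44.8). The colon library was the higher of the pair in both protocols, and the intervals of the tissues did not overlap. The ratio of colon to small intestine was 3.83 (3.16 to 4.66) by polyadenylated RNA and 4.35 (3.11 to 6.25) by ribosomal RNA-depleted RNA, so the protocols could not be distinguished.

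Spdef, the maturation factor of goblet and Paneth cells (chromosome 17, 27851392 to 27865896, minus strand, 6 exon blocks), showed the largest ratio of the set by polyadenylated RNA. Its reads numbered 81 in small intestine and 631 in colon, or 1.98 RPKM (1.57 to 2.45) and 13.9 RPKM (12.9 to 15.1). In the ribosomal RNA-depleted pair they numbered 34 and 561, or 9.16 RPKM (6.34 to 12.8) and 88.4 RPKM (81.3 to 96.1). Both colon libraries were far above their small intestine partners. The ratios were 7.06 (5.6 to 9.02) and 9.66 (6.83 to 14.1), and 3.80% and 2.62% of all genes tested had a larger one. The latter ratio was 4.07 when start points replaced reads.

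Gfi1, a zinc finger repressor of the endocrine programme in secretory cells (chromosome 5, 108145674 to 108153363, minus strand, 6 exon blocks), was a low gene. It had 27 and 152 reads in polyadenylated small intestine and colon, or 0.419 RPKM (0.276 to 0.610) and 2.14 RPKM (1.81 to 2.51), and 6 and 39 reads in the ribosomal RNA-depleted pair, or 1.03 RPKM (0.378 to 2.24) and 3.92 RPKM (2.78 to 5.35). Colon was higher in both, and the ratios of 5.10 (3.37 to 8.0) and 3.80 (1.60 to 11) overlapped widely.

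The endocrine factors gave a weaker picture. Neurod1 (chromosome 2, 79292798 to 79296793, minus strand, 2 exon blocks) had 117 and 187 reads by polyadenylated RNA, or 2.09 RPKM (1.73 to 2.50) and 3.02 RPKM (2.61 to 3.49), and 6 and 28 reads by ribosomal RNA-depleted RNA, or 1.18 RPKM (0.434 to 2.57) and 3.23 RPKM (2.14 to 4.66). Colon was the higher library each time, with ratios of 1.45 (1.14 to 1.84) and 2.73 (1.11 to 8.07), but the former became 0.968 when the libraries were scaled by 8 epithelial genes, and the latter became 5.32 when matches had at most 1 mismatch. Of its 2494 exonic bases, 240 also belong to Cerkl and Gm17325. Neurog3 (chromosome 10, 61595838 to 61597511, plus strand, 2 exon blocks), which starts the endocrine programme, shares 273 of its 1540 exonic bases with 2010107G23Rik on the other strand. It had 16 and 22 reads, or 0.462 RPKM (0.264 to 0.750) and 0.576 RPKM (0.361 to 0.872), and then 1 and 2 reads. The tissues could not be distinguished at this depth, since the ratio of 1.25 (0.625 to 2.54) spans 1 and became 0.943 with the median of ratios and 0.833 with the epithelial genes. With 3 reads in both ribosomal RNA-depleted libraries together, the ratio there is open in both directions. The read in small intestine lay on the strand opposite to the gene.

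Hes1, the Notch target that represses Atoh1 (chromosome 16, 30065443 to 30067882, plus strand, 4 exon blocks), had 180 and 427 reads in polyadenylated small intestine and colon, or 5.52 RPKM (4.74 to 6.38) and 11.9 RPKM (10.8 to 13.0). In the ribosomal RNA-depleted pair it had 45 and 174 reads, or 15.2 RPKM (11.1 to 20.4) and 34.5 RPKM (29.5 to 40.0). Like Atoh1, it was higher in colon in both protocols. Its ratios of 2.15 (1.80 to 2.57) and 2.26 (1.62 to 3.21) lay below those of Atoh1. Neither 2-fold call held under every alternative. The former was 1.71 with at most 1 mismatch, 1.81 in start points and 1.97 in the 3' block alone, and the latter was 1.71 in start points and 1.24 in the 3' block alone.

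Klf4, a zinc finger factor of goblet and surface cells (chromosome 4, 55540009 to 55545347, minus strand, 5 exon blocks), had 4756 and 12050 reads by polyadenylated RNA, or 69.5 RPKM (67.5 to 71.5) and 160 RPKM (157 to 163). By ribosomal RNA-depleted RNA it had 651 and 1749 reads, or 105 RPKM (97.2 to 113) and 165 RPKM (158 to 173). Colon was higher in both, but by unequal ratios of 2.30 (2.22 to 2.38) and 1.57 (1.44 to 1.72), whose intervals did not overlap. In start points, of which the polyadenylated libraries held 1603 and 1885, the former ratio was 1.12. Of the polyadenylated reads, 97.1% and 96.3% lay in a block of 1164 bases. Start points there are limited by the number of positions, so that value may understate the difference in level. By ribosomal RNA-depleted RNA the ratio was 1.22 in start points, of which those libraries held 229 and 479. With the median of ratios the ratios were 1.74 and 1.24 in the 2 protocols, and with scaling by epithelial genes 1.53 and 1.18.

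Sox9, an HMG box factor of the crypt base (chromosome 11, 112643524 to 112649071, plus strand, 3 exon blocks), had 801 and 1847 reads by polyadenylated RNA, or 8.59 RPKM (8.01 to 9.21) and 18 RPKM (17.2 to 18.8). The ribosomal RNA-depleted pair held 76 and 399 reads, or 9.01 RPKM (7.10 to 11.3) and 27.7 RPKM (25 to 30.5). The small intestine libraries gave like levels and the colon libraries did not. The intervals of the ratios of 2.09 (1.92 to 2.27) and 3.07 (2.40 to 3.98) did not overlap, in the opposite order to those of Klf4. In start points these ratios were 1.28 and 2.15, and with scaling by epithelial genes 1.40 and 2.32.

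The forkhead factors open chromatin for endocrine and mucin genes. Foxa1 (chromosome 12, 58641619 to 58647108, minus strand, 2 exon blocks) had 163 and 542 reads by polyadenylated RNA, or 2.27 RPKM (1.94 to 2.65) and 6.86 RPKM (6.29 to 7.46), and 33 and 136 reads by ribosomal RNA-depleted RNA, or 5.09 RPKM (3.50 to 7.14) and 12.3 RPKM (10.3 to 14.5). Its ratios were 3.01 (2.53 to 3.61) and 2.41 (1.64 to 3.64), the latter 1.98 in start points. Foxa2 (chromosome 2, 147868614 to 147872705, minus strand, 3 exon blocks) had 23 and 101 reads, or 0.481 RPKM (0.305 to 0.722) and 1.91 RPKM (1.56 to 2.33), and then 3 and 79 reads, or 0.693 RPKM (0.143 to 2.03) and 10.7 RPKM (8.45 to 13.3). Both genes were higher in colon in both protocols. For Foxa2 the ratios were 3.98 (2.51 to 6.56) and 15.4 (5.08 to 76.3), and the width of the latter comes from the 3 reads in small intestine. The former was 7.26 in reads of the sense strand alone, an arbitrary part of the reads in a protocol that does not keep strand, and the latter was 8.38 in start points. Foxa1 over Foxa2, per kilobase, was 4.73 (3.05 to 7.67) and 3.58 (2.89 to 4.47) in polyadenylated small intestine and colon, 7.34 (2.30 to 37.4) in ribosomal RNA-depleted small intestine and 1.15 (0.864 to 1.54) in ribosomal RNA-depleted colon, where the levels could not be separated.

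A stricter rule called a gene when the higher RPKM was at least 3-fold the lower after 1 RPKM was added to the lower as a penalty, among genes present in both tissues above 0.01 RPKM with at least 2 start points. By polyadenylated RNA it called Spdef alone among the 10, where 3.23% of 15129 genes were called for colon. By ribosomal RNA-depleted RNA it called Atoh1, Spdef and Foxa2, where 6.35% of 13108 were called for colon. The call of Atoh1 was lost there in start points and with epithelial scaling, which left Spdef and Foxa2.

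Ratios between genes within a library do not depend on how libraries are scaled. These pairs were picked after the values had been seen and are given as a description. Hes1 over Atoh1, per kilobase, was 1.96 (1.56 to 2.48) in polyadenylated small intestine and 1.10 (0.971 to 1.25) in polyadenylated colon, and 1.66 (1.06 to 2.62) and 0.864 (0.712 to 1.05) in the ribosomal RNA-depleted pair. The ratio was lower in colon than in small intestine in both protocols. Its level against 1 depended on which Hes1 reads were counted. Without the block of Hes1 nearest the 5' end, the ratios were 0.771 (0.551 to 1.07) and 0.440 (0.361 to 0.533) by polyadenylated RNA and 1.88 (1.18 to 3.02) and 0.955 (0.778 to 1.17) by ribosomal RNA-depleted RNA. Without the most used start point of both genes, they were 1.97 (1.56 to 2.49) and 1.09 (0.958 to 1.24) and 1.40 (0.839 to 2.33) and 0.655 (0.521 to 0.819). Under both alternatives, chosen after seeing the data, colon was again the lower of each pair. Spdef over Atoh1 went the other way, from 0.703 (0.526 to 0.934) to 1.30 (1.16 to 1.46) and from 0.999 (0.612 to 1.62) to 2.22 (1.92 to 2.56). Klf4 over Atoh1 was 24.7 (20.8 to 29.6) and 14.9 (13.6 to 16.2), and 11.5 (8.29 to 16.3) and 4.14 (3.65 to 4.71). Sox9 over Atoh1 was lower in polyadenylated colon, at 1.67 (1.52 to 1.84), than in small intestine, at 3.06 (2.54 to 3.71), while its intervals overlapped in the ribosomal RNA-depleted pair, at 0.982 (0.659 to 1.48) and 0.694 (0.595 to 0.810). Gfi1 over Atoh1 lay between 0.0982 and 0.199 in all 4 libraries, with intervals that overlapped between the tissues in each protocol.

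**Figure D3:**
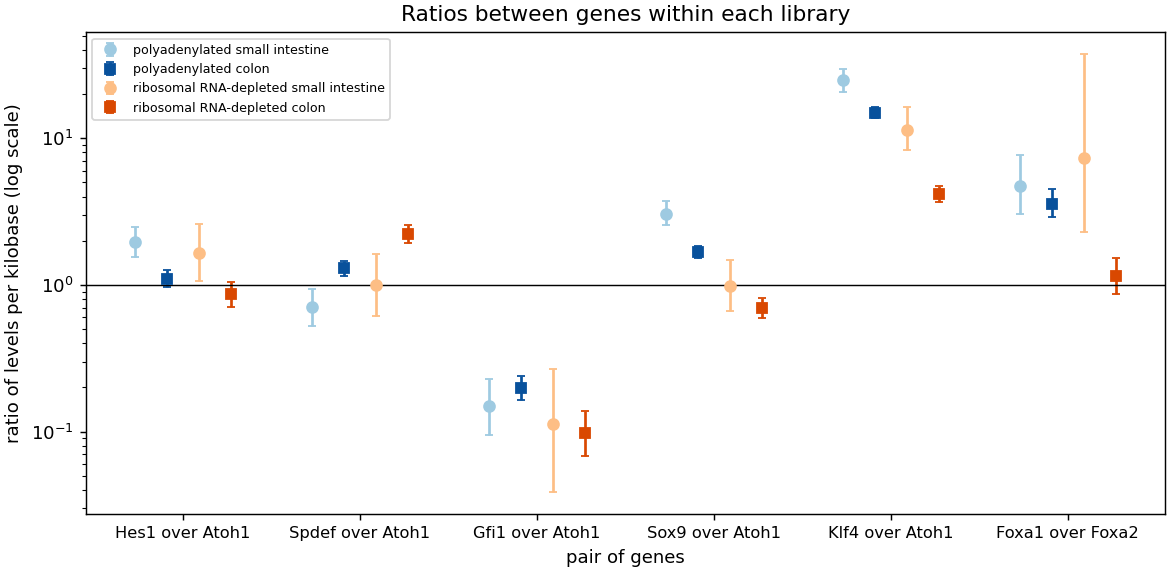
Ratios of levels per kilobase between pairs of the genes within each library (log axis), with 95% counting intervals and a line at 1. Hes1 over Atoh1 is lower and Spdef over Atoh1 higher in colon than in small intestine in both protocols.

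Read placement along the genes differed between the protocols. By polyadenylated RNA the block nearest the 3' end held 97.1% and 96.3% of Klf4 reads in small intestine and colon and 99.9% and 99.8% of Sox9 reads, whereas by ribosomal RNA-depleted RNA it held 41.6% and 50.3% of Klf4 reads and 78.9% and 88.0% of Sox9 reads. That block makes up 38.2% of the Klf4 exonic bases and 74.4% of those of Sox9. Polyadenylated reads of these genes thus came almost wholly from the last exon. Coding sequence, as annotated in GENCODE M1, held 7.91% and 9.89% of Klf4 reads by polyadenylated RNA and 47.6% and 45.7% by ribosomal RNA-depleted RNA, against 47.6% of its bases. For Sox9 the shares in coding sequence were 0.749% and 1.41% against 25% and 37.3%.

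Hes1 ran the other way. Of its polyadenylated reads, 126 of 180 in small intestine and 297 of 427 in colon lay in the block nearest the 5' end, which holds 23.6% of its bases. In the other protocol the same block held 6 of 45 and 27 of 174. Most of the polyadenylated reads of that block, 125 and 289 over the gene, started before the coding sequence. Both strands were read in that protocol, so these reads could not be given a direction. Neurod1 did not show the 3' placement of Klf4 and Sox9 either. Coding sequence held 51.3% and 69.5% of its polyadenylated reads in small intestine and colon, against 42.9% of its bases.

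**Figure D4:**
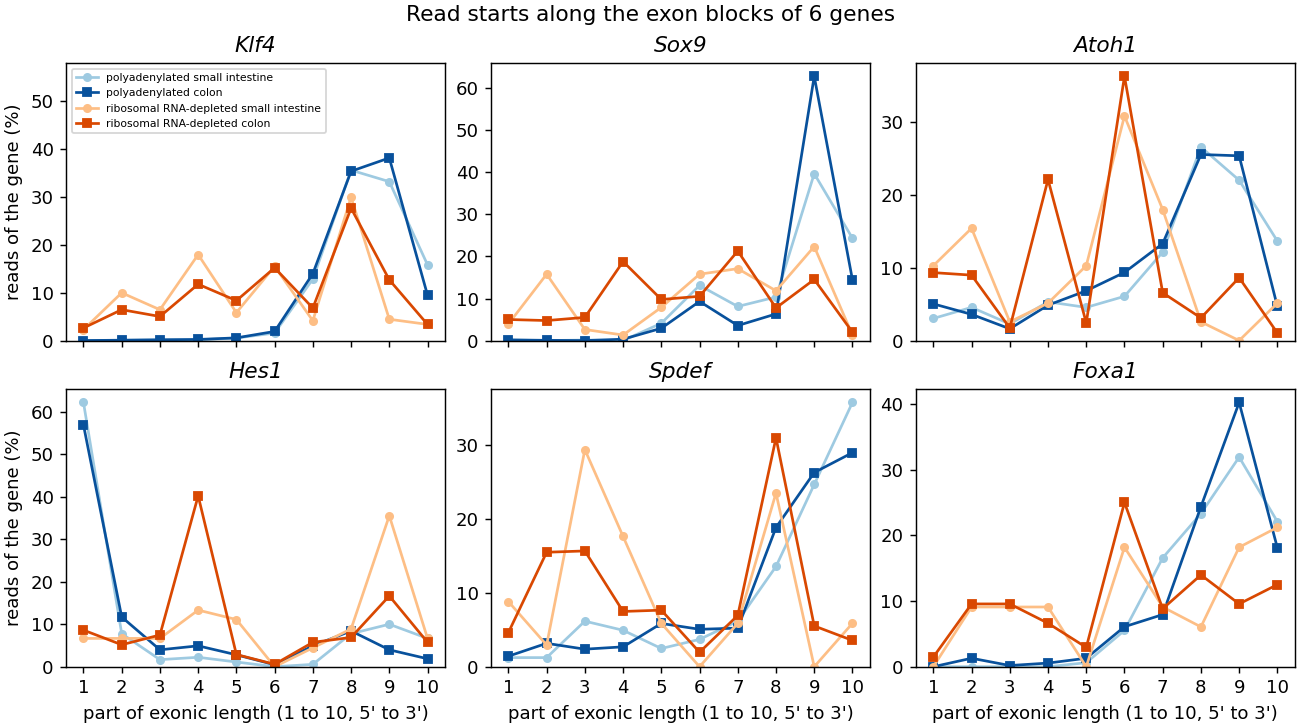
Share of reads (%) in 10 equal parts of the exonic length, from 5' to 3', for 6 of the genes in the 4 libraries. Polyadenylated reads gather in the last parts for Klf4, Sox9, Spdef, Foxa1 and Atoh1 and in the first part for Hes1, while ribosomal RNA-depleted reads lie along the whole length with single peaks.

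Strand was kept in the ribosomal RNA-depleted libraries, where 98.3% or more of reads on all genes had the direction of the gene. There, all reads of Atoh1, Spdef, Gfi1, Hes1, Sox9, Neurod1 and Foxa2 were in the sense direction. Klf4 had 1 and 2 antisense reads, Foxa1 had 1 in colon, and the single Neurog3 read in small intestine was antisense.

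In the same libraries a few positions supplied many reads of a gene. A start point inside coding sequence is shown for 4 genes, picked after their values were seen, to give examples of such positions. It is the most used one of ribosomal RNA-depleted colon or, for Klf4, of small intestine, and it carried 4.63% (Klf4) to 33.9% (Hes1) of the reads of the gene in ribosomal RNA-depleted colon. Each is given as 30 bases of the mm9 genome on the strand of the gene, with the base at which the reads began in capitals.
Hes1: Cagacattctggaaatgactgtgaagcacc
Spdef: Tcagcgccttgtctaccaatttgtgcatcc
Klf4: Agggctcctctacagccgagaatctgcgcc
Foxa2: Tatcaacaacctcatgtcgtccgagcagca
The Hes1 stretch (chr16:30066277-30066306, plus strand) had 59 of the 174 reads of the gene in ribosomal RNA-depleted colon and none in the other 3 libraries. The Spdef stretch (chr17:27851820-27851849, minus strand) had 59 of 561 reads in that library, 1 in ribosomal RNA-depleted small intestine, 3 in polyadenylated colon and none in polyadenylated small intestine. At the Klf4 stretch (chr4:55543455-55543484, minus strand) 52 and 81 reads began in ribosomal RNA-depleted small intestine and colon and none in the polyadenylated libraries. The Foxa2 stretch (chr2:147869467-147869496, minus strand) had 13 of 79 reads in ribosomal RNA-depleted colon and none elsewhere. At most 1 color mismatch was found in 53 of the 59 Hes1 reads, 43 of the 59 Spdef reads, 59 of the 81 Klf4 reads and 10 of the 13 Foxa2 reads of ribosomal RNA-depleted colon. With the printed start point left out, the ratio of colon to small intestine by ribosomal RNA-depleted RNA was 1.5 (1.05 to 2.16) for Hes1, 8.90 (6.26 to 13.1) for Spdef, 1.63 (1.48 to 1.79) for Klf4 and 12.9 (4.22 to 64.0) for Foxa2. This alternative was chosen after seeing the data, and the Hes1 point it left out had reads in that colon library alone. With the most used start point of each library left out, the Hes1 ratio was 2.04.

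Other genes of the same pathways were taken from lists written with earlier results of these data known. Of 28 Notch pathway genes (ligands, receptors, processing enzymes and effectors other than Hes1), 25 were tested by polyadenylated RNA, of which 5 were at least 2-fold higher in colon and 4 in small intestine, against 26.1% and 9.68% of all genes, with a median log2 ratio of 0.27. By ribosomal RNA-depleted RNA 22 were tested, 2 higher in colon and 3 in small intestine, against 27.9% and 12.3%, with a median of 0.28. The list as a whole lay just below the median of all genes, whereas Hes1 lay above it. Among its members, the ligand Dll1 was the higher in small intestine in both protocols, by 2.71-fold (1.89 to 3.94) and 8.64-fold (5.17 to 15.2), and so was the Notch antagonist Numb, by 2.32-fold (2.16 to 2.50) and 3.90-fold (2.89 to 5.32). The glycosyltransferase Lfng was higher in colon, by 2.72-fold (1.18 to 7.0) and 3.18-fold (1.85 to 5.81), from 8 and 24 reads and from 16 and 87 reads.

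Of 14 enteroendocrine transcription factors other than Neurog3 and Neurod1, 4 of 11 tested were at least 2-fold higher in colon by polyadenylated RNA and 2 of 7 by ribosomal RNA-depleted RNA, with none 2-fold higher in small intestine. With 26.1% and 27.9% of all genes higher in colon by that much, these counts lie near the background. Insm1, a zinc finger factor downstream of Neurog3, was 20.7-fold (14.2 to 31.4) higher in polyadenylated colon, from 28 and 639 reads, against 1.59-fold (0.639 to 4.47) from 7 and 19 reads in the other protocol. Those intervals do not overlap. Insm1 also acts in pancreatic endocrine cells, and polyadenylated colon is the library with 650 reads of Ppy and 238 RPKM of acinar transcripts, against 0 reads and 0.827 RPKM in polyadenylated small intestine. In ribosomal RNA-depleted small intestine, the library with 2247 RPKM of acinar transcripts, Insm1 had 7 reads. Ins1 and Ins2 had no read in any library. The part of pancreatic RNA in the Insm1 ratio was not tested. The ratios of Pax6 were 1.09 (0.815 to 1.45) and 1.89 (1.10 to 3.40), those of Sox4 2.07 (1.35 to 3.24) and 1.42 (1.01 to 2.02), and those of Etv1 1.61 (1.32 to 1.95) and 4.37 (2.44 to 8.49). Dll1, Pax6 and Sox4 share exonic bases with other annotated genes. Reads of both strands were counted in both protocols, so their values can include reads of those genes in each.

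Of 19 other lineage transcription factors, 7 were at least 2-fold higher in colon and 5 in small intestine by polyadenylated RNA, against 26.1% and 9.68% of all genes. By ribosomal RNA-depleted RNA they were 3 and 4 of the 17 tested, against 27.9% and 12.3%. On the colon side were Creb3l4, a membrane-bound factor of secretory cells, with ratios of 4.38 (4.02 to 4.77) and 11.2 (5.98 to 23.8), and the caudal factor Cdx1, with 4.14 (3.76 to 4.56) and 4.94 (4.26 to 5.74). Its relative Cdx2, named after its values were seen, had a ratio of 3.68 (3.37 to 4.02) by polyadenylated RNA and was 2.01-fold (1.72 to 2.36) higher in small intestine by ribosomal RNA-depleted RNA. On the small intestine side were Gata4, 147-fold (62.5 to 453) and 83.7-fold (35.4 to 260) higher there, and the enterocyte factor Hnf4g, 33.5-fold (31.3 to 35.8) and 6.90-fold (6.12 to 7.79). Hnf4a differed little, with ratios of 1.24 (1.21 to 1.28) and 1.19 (1.13 to 1.25), and the epithelial factor Elf3 gave 2.08 (2.02 to 2.14) and 1.81 (1.59 to 2.07).

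Products of the lineages that these factors serve were read beside them. Of 9 goblet cell genes found, 5 and 6 were at least 2-fold higher in colon in the polyadenylated and the ribosomal RNA-depleted protocol and none in small intestine, against 26.1% and 27.9% of all genes higher in colon, with median log2 ratios of 1.16 and 1.65. Agr2, a disulphide isomerase needed for mucin folding, had ratios of 5.02 (4.98 to 5.07) and 16.2 (13.8 to 19.1), the chloride channel regulator Clca3 2.60 (2.56 to 2.63) and 10.1 (9.74 to 10.5), and Ern2, the stress sensor of mucous cells, 8.97 (8.10 to 9.96) and 6.89 (4.87 to 10.0). Tff3, the trefoil peptide of goblet cells, differed less, with 1.30 (1.28 to 1.33) and 1.18 (1.09 to 1.27), and Zg16 gave 1.63 (1.62 to 1.65) and 1.0 (0.955 to 1.05). Fcgbp, a mucus protein named after its values were seen, had a ratio of 1.77 (1.73 to 1.81) by polyadenylated RNA and was 1.62-fold (1.58 to 1.67) higher in small intestine by ribosomal RNA-depleted RNA. The list median thus lay on the same side as Atoh1 and Spdef, while single products differed widely and Fcgbp changed sides.

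The list written for Paneth cell products lay on the other side. It holds Lyz1, Mmp7, Ang4, Itln1 and Guca2b, of which the last encodes uroguanylin, mainly a product of enterocytes. All 5 were at least 2-fold higher in small intestine by polyadenylated RNA and 4 of 5 by ribosomal RNA-depleted RNA, against 9.68% and 12.3% of all genes, with median log2 ratios of -7.21 and -5.18. Without Guca2b the counts were 4 of 4 and 3 of 4, Ang4 being the exception in the latter. Lyz1, the Paneth cell lysozyme, was 150-fold (142 to 159) and 36.3-fold (31.6 to 42.0) higher in small intestine, and Mmp7, which activates defensins, 148-fold (114 to 197) and 17.3-fold (8.38 to 41.4). Sox9 and Spdef, which act in Paneth cells as well, were higher in colon in the same libraries.

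Among 13 enteroendocrine products, 6 were at least 2-fold higher in colon and 3 in small intestine by polyadenylated RNA, and 6 and 1 of 11 tested by ribosomal RNA-depleted RNA. The shares of all genes were 26.1% and 9.68% in the former protocol and 27.9% and 12.3% in the latter. The colonic hormones Pyy and Gcg had ratios of 9.88 (8.54 to 11.5) and 11.2 (5.54 to 26.4) and of 2.59 (2.46 to 2.73) and 6.27 (4.45 to 9.09). Cck, the hormone of duodenal and jejunal cells, was 4.05-fold (2.84 to 5.90) and 3.17-fold (1.18 to 9.39) higher in small intestine. Hormone genes therefore lay on both sides, while Neurog3 could not be separated between the tissues. Of the 10 absorptive products, 4 were at least 2-fold higher in colon and 6 in small intestine in both protocols, against the same shares. That list (Alpi, Sis, Fabp1, Fabp2, Apoa1, Apoa4, Slc26a3, Car1, Car4 and Aqp8) holds products of both tissues and was written with earlier results known. Its split therefore follows from how it was written and is no result about the absorptive lineage.

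**Figure D5:**
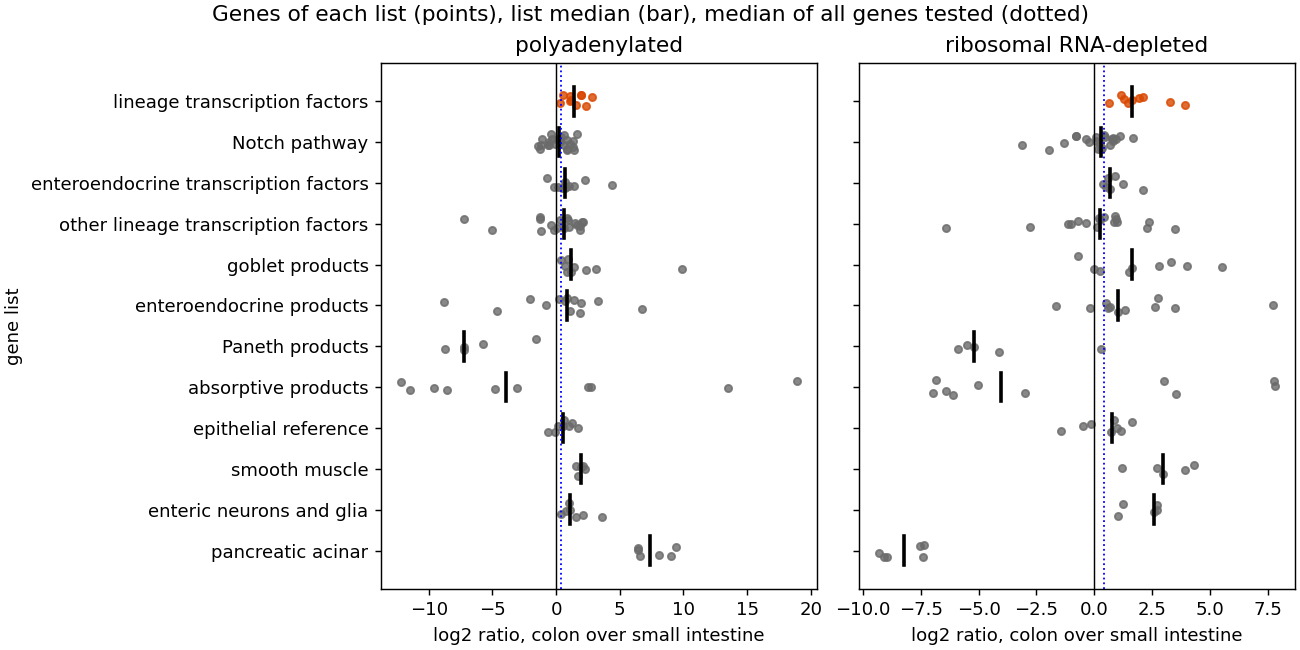
Log2 ratio of colon to small intestine for each tested gene of 12 lists in both protocols (points), with the list median (bars) and the median of all genes tested (dotted). The lineage transcription factors have medians of 1.40 and 1.62 over those tested, Notch pathway genes 0.27 and 0.28, and pancreatic acinar genes lie on opposite sides in the protocols.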

How the data were processed

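RNA-Seq reads (SOLiD, 35 colors) of 4 libraries were analysed. The authors deposited positions, strands and mismatches of reads placed uniquely, with up to 3 color mismatches, on merged RefSeq exons and exon-exon junctions of mm9. Reads outside exons and normalized values were not analysed here. Reads were assigned to the exon block holding their start (3 bases of tolerance) and counted on 20859 condensed genes, of which 20675 were named from GENCODE M1 on the same build. Reads of both strands were counted in both protocols, so the value of a gene can include reads of a gene that overlaps it. The total sequenced was 77504263, 83302412, 36419942 and 37466674 reads, in the order polyadenylated small intestine and colon, then ribosomal RNA-depleted small intestine and colon. RPKM used uniquely placed reads as library size.

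Intervals at the 95% level were exact Poisson for levels, exact conditional binomial for ratios and Wilson for shares. With 1 library per group, no test and no p-value were calculated. A fold against 0 reads was set against a floor of 3 reads. Fold thresholds were 2, and 3 with a penalty of 1 RPKM. Genes needed 20 reads in both libraries together. The members and lists were chosen with earlier results of these data known. Named from each list were at most 4 genes with the highest summed RPKM and at most 4 that were 2-fold apart in the same direction in both protocols, and like genes were the 3 nearest in centred log2 RPKM. Of the lists, Muc2 and Tagln were not found by name. Fold, interval and threshold procedures were tested on simulated data. Python 3.11.15, numpy 2.4.6, pandas 2.3.3, scipy 1.17.1, networkx 3.6.1 and matplotlib 3.10.9 were used. Alternatives were other scalings, mismatches, start points, strand, the 3' block, minimum reads, junction reads and a penalty of 0.1 RPKM. Leaving out the printed or most used start points of single genes, leaving out the 5' block of Hes1, and the count over both protocols under each alternative were added after seeing the data.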

Additional observations from a re-analysis of the deposited data

Results flagged for a closer look

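Some list genes lay on opposite sides in the protocols, each with an interval that excluded 1. There is 1 library per tissue and protocol, and these differences were not tested. The ratio of colon to small intestine by polyadenylated and by ribosomal RNA-depleted RNA was 0.410 and 1.21 for Adam10, the sheddase of Notch, and 0.780 and 1.26 for Ncstn, a part of gamma-secretase. For the caudal factor Cdx2 it was 3.68 and 0.497, and for the mucus gene Fcgbp 1.77 and 0.616. For Xbp1, a factor of secretory cells, it was 0.899 and 1.87. For the hormone gene Nts it was 0.568 and 1.59, and for Ang4, a Paneth cell gene with close paralogues whose reads can be hard to tell apart, 0.343 and 1.23.

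Pancreatic acinar genes differed most between the protocols. Ctrb1 had ratios of 536 and 0.00183 and Cpb1 of 86.6 and 0.00546. Cela3b and Pnlip had no read in polyadenylated small intestine and were at least 98.2-fold and 674-fold higher in polyadenylated colon against a floor of 3 reads in that library, with ratios of 0.00608 and 0.00158 by ribosomal RNA-depleted RNA. Junction reads are part of the library sizes but not of the gene values above, and among the 10 transcription factors Klf4 had the most, 8 in polyadenylated colon and 2 in polyadenylated small intestine.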

How the results depend on the processing

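The count of genes of the set at least 2-fold higher in colon by polyadenylated RNA, 8 of 10, was 5 with the median of ratios, 5 with scaling by 8 epithelial genes and 5 with start points in place of reads, where 16.0%, 12.7% and 21.9% of all genes were higher in colon by that much. These were Atoh1, Spdef, Gfi1, Foxa1 and Foxa2 each time. Start points are limited by the number of positions in genes with many reads on few bases, such as Klf4. By ribosomal RNA-depleted RNA the count of 8 became 5 with a minimum of 100 reads, which fewer genes of the set reach, where 25% of all genes were higher in colon by that much. The count of 7 in both protocols, recomputed after seeing the data, was 4 with the median of ratios, 4 with the epithelial genes and 4 with start points. For all genes the share in both protocols, 13.6%, was calculated for the reported setting alone and does not apply to these counts. Under the rule of 3-fold with a penalty, the count of 1 by polyadenylated RNA became 2 with start points, 2 with sense reads only (an arbitrary part of the reads there, since strand was not kept) and 4 with a penalty of 0.1 RPKM, and the count of 3 by ribosomal RNA-depleted RNA became 5 with that penalty. The shares of all genes called for colon by this rule, 3.23% and 6.35%, were calculated for the reported setting alone. The changed counts thus have no background beside them. Apart from the minimum of reads and the penalty, whose construction admits fewer or more genes, the cause was not tested. Of 158 ratios of single genes under the alternatives other than those added after seeing the data, 128 stayed within the counting interval of the reported ratio and 30 did not. A ratio below 1 arose in 6 of the 158, which were 5 of Neurog3 (lowest 0.585, with the 3' block only by ribosomal RNA-depleted RNA) and 1 of Neurod1. No paired test was run. A fit with protocol as block would leave 1 residual degree of freedom and would take the protocols as replicates of each other. With 1 library per tissue and protocol, no library was left out. Depth limits Neurog3, Gfi1, Neurod1 and Foxa2 in the ribosomal RNA-depleted libraries, where small intestine had 1 to 6 reads of each.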

Other observations

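For the 6 genes of the set with at least 20 reads in every library, the genes nearest in centred log2 RPKM over the 4 libraries were sought among 8210 genes. With 4 libraries, likeness is a description only. Sox9 was nearest to Pafah1b3 (distance 0.03) and then to Dmbt1 (0.13), a secreted mucosal scavenger receptor. Atoh1 was nearest to AF064781 (0.06) and Usp53 (0.19), Klf4 to Nf2 (0.09) and Ahcyl2 (0.11), Hes1 to Galnt4 (0.10) and Bsdc1 (0.12), and Foxa1 to Cdk5 (0.09) and Entpd6 (0.12). Spdef had no gene as near, with Shisa2 at 0.35 and Glul at 0.49.

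At a start point of Klf4 in the 3' block, 64 reads of ribosomal RNA-depleted small intestine and 119 of ribosomal RNA-depleted colon began, of which 5 and 6 had at most 1 color mismatch. At another, 111 of 120 reads of ribosomal RNA-depleted colon had at most 1 mismatch. With matches of at most 1 mismatch only, the ratio of colon to small intestine of Klf4 by ribosomal RNA-depleted RNA was 1.64.

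The goblet cell gene Retnlb had 4 reads in polyadenylated small intestine and none in ribosomal RNA-depleted small intestine, against 238 and 98.0 RPKM in the colon libraries. Insl5, a hormone of colonic endocrine cells, had no read in polyadenylated small intestine and 1 in ribosomal RNA-depleted small intestine, against 354 and 366 reads in colon.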
